A study of Homo sapiens with 6 samples.

Results

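Gene deserts are stretches of the genome that hold no protein-coding gene, and the open chromatin found in them in MCF10A cells is described here. Open regions of 6 ATAC-seq libraries on chromosomes 1 to 22 and X were joined wherever they overlapped or touched, and 49519 merged regions resulted. A merged region was counted as a desert region when its centre lay outside every protein-coding gene of GENCODE release 44 and more than 100 kb from the nearest protein-coding start site. This held for 7515 regions, or 15.2% of all. The other 42004 merged regions were divided by the same centres into 12142 intergenic regions near genes (outside coding genes, more than 1000 bp and at most 100 kb from a start site), 21593 regions in the body of a coding gene and 8269 promoter regions (centre within 1000 bp of a start site). No measured score entered this choice. The 2 members closest to the limit lay 100004 and 100050 bp from a start site, and the 2 regions that just missed it lay at 99975 and 99968 bp.

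MCF10A is an established, non-tumorigenic line of human mammary epithelial cells, and wild-type cells were used throughout. All cells were first kept for 30 min in phosphate-free HHBSS, a buffered salt solution. They were then left untreated (control), given 50 μM TPA, tris(2-pyridylmethyl)amine, a chelator that enters cells and binds Zn2+, or given 30 μM ZnCl2, in each case for 30 min. Each condition has 2 libraries. The labels do not say whether the 2 libraries of a condition came from separate cultures, and the study calls them biological in one place and technical in another, so p-values measure only the spread between these samples, which may be technical.

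Long stretches without coding genes often flank genes of development and growth control. In such stretches, open chromatin mostly marks distal enhancers, sites that bind CTCF and the starts of long noncoding RNAs (lncRNAs). Enhancers recruit sequence-specific factors. In epithelial cells these include AP-1 (dimers of FOS and JUN proteins, which act after growth and stress signals), TEAD (the DNA-binding partners of YAP), RUNX, C/EBP and p63, while the zinc finger protein CTCF holds chromatin loops and SP and KLF zinc finger proteins bind GC-rich promoters.

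The central 300 bases of 6 desert regions are printed below from the plus strand of hg38, 5′ to 3′. The first 3 came from regions open in all 6 libraries with no repeated piece (defined below), in deserts described below. They were picked for display because they hold matches to the motifs searched. The capitals mark matches to AP-1 (TGANTCA), CTCF (CCAGNNGGC, a part of its full motif), SP and KLF (GGGCGG) or TEAD (ACATTCC), on either strand. The region between AGA and TENM3 held 2 AP-1 matches and 1 CTCF match, that between IGFBP3 and TNS3 held 1 AP-1 match, and that between LRRC28 and MEF2A held 1 match each to AP-1, SP and KLF, and TEAD.
chr4:177596106-177596405: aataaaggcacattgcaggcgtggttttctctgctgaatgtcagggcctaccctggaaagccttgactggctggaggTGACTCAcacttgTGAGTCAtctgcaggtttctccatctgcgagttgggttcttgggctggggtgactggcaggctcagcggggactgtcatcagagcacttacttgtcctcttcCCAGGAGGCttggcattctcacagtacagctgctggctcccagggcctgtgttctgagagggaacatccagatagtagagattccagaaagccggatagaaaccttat
chr7:46764231-46764530: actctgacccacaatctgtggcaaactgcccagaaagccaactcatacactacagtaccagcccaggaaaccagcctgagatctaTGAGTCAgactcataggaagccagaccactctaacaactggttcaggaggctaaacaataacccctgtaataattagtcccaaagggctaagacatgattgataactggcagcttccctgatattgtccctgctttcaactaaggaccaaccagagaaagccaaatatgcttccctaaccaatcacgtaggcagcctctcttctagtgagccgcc
chr15:99455006-99455305: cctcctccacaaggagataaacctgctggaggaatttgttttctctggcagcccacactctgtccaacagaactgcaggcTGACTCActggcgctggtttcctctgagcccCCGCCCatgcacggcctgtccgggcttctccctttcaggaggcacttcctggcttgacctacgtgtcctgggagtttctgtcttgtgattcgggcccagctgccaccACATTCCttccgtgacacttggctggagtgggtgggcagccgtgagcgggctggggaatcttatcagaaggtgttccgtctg
The next shows a region open after TPA and not in the control, between EDN1 and PHACTR1, which held 1 AP-1 match.
chr6:12578656-12578955: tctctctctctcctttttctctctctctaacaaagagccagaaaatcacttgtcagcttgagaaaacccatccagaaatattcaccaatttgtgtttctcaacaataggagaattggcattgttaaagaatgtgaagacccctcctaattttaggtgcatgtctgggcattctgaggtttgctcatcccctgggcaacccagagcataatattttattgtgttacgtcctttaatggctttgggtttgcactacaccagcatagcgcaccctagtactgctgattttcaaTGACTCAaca
The last 2 show sequence of another kind. The first, between EPHA3 and PROS1, belonged to the highest scoring members and is 21.7% GC with short units that recur. The second, between MTRR and SEMA5A, was open after ZnCl2 and not in the control, and its capitals mark 39 bases covered by 20-base words that also occur in the mitochondrial genome.
chr3:93470431-93470730: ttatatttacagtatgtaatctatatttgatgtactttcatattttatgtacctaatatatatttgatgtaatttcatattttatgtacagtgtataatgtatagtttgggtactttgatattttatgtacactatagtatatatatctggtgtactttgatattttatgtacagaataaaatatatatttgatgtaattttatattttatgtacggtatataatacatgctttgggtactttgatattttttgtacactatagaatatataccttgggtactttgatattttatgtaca
chr5:8622421-8622720: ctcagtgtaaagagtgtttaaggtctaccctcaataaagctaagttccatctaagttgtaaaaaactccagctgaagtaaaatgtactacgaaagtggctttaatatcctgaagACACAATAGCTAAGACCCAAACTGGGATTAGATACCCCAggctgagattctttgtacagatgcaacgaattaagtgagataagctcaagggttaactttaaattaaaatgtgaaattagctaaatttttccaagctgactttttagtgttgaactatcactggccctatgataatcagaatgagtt

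Desert regions lay at a median of 239053 bp from the nearest coding start site, and the farthest at 5499112 bp. Of all members, 40.6% lay at 100 to 200 kb, 37.5% at 200 to 500 kb, 15.4% at 500 to 1000 kb and 6.53% beyond. No annotated gene of any kind overlapped 57.8% of them. An lncRNA gene overlapped 39.9%, and 5.87% (441 regions) reached within 1000 bp of the start of one. They tended to lie in groups, with a median of 16.3 kb to the nearest other member. For 38.7% the nearest was within 10 kb, and for 15.9% it was over 100 kb away.

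Deserts made up 955 Mb, or 32.8%, of the 2911 Mb of sequence on these chromosomes, and held 7.87 open regions per Mb. The rest of the genome held 21.5 open regions per Mb. There were 2260 unbroken desert stretches. Of these, 1414 held at least 1 open region, 212 held at least 10, and 846 held none. The stretches with an open region were longer, with a median of 282 kb against 47.8 kb for those without. Desert sequence was 38.4% GC, and its open regions were more GC-rich at 43.6% ± 6.71 (SD over 7515 regions).

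The libraries differed widely in how many regions were called, from 18883 in ZnCl2 replicate 2 to 44637 in control replicate 2, and control replicate 1 had 25025. The lists hold no read counts, so sequencing depth is unknown, and a larger list and more open chromatin cannot be told apart. For that reason shares, percentiles and calls gained or lost are also given with every list shortened to its 18883 best-scoring regions (equal list length). As a check of the cell type, promoters of 11 of 12 basal epithelial markers were open in at least 1 library and 5 of 12 in all 6, with 5 to 11 open per library. The TP63 promoter as annotated was open in none. Of 4 general epithelial markers, KRT8 and KRT18 were open in all 6 libraries, CDH1 in 3 (both TPA libraries and ZnCl2 replicate 1) and EPCAM in 1. Promoters of ESR1, PGR and GATA3 were open in none and that of FOXA1 in all 6, and of the markers of immune, liver, muscle, endothelial and neuronal cells CD14 was open in all 6 libraries, APOA1 and SYT1 in 5 and the others in none.

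In each library's own list, the number of desert regions was highest in the longest list and lowest in the shortest. There were 2691 and 6491 in the control, 4859 and 6062 after TPA, and 4483 and 1743 after ZnCl2. Their share was 10.8% and 14.5% in the control, 13.5% and 14.7% after TPA, and 11.8% and 9.23% after ZnCl2. Both TPA libraries were near the higher control and ZnCl2 replicate 2 lay below the rest, while the control libraries spanned most of the range. The mean share was 14.1% ± 0.790 after TPA and 12.6% ± 2.68 in the control (SD, n = 2 each, two-sided exact permutation p = 0.667, adjusted p = 0.833). With ZnCl2 it was 10.5% ± 1.803 (SD, n = 2, exact permutation p = 0.667 against the control, adjusted p = 0.833). With 2 libraries against 2 the smallest p that this test can give is 0.333, so none of the 10 comparisons of treated and control libraries could pass 0.05.

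At equal list length the order of the libraries was clearer. The desert share was then 9.40% and 10.4% in the control, 10.9% and 11.6% after TPA, and 8.71% and 9.23% after ZnCl2. Both TPA libraries lay above both controls and both ZnCl2 libraries below, with no overlap between the groups. The difference in desert share was 1.36 percentage points for TPA and -0.91 for ZnCl2 (exact permutation p = 0.333 each, the smallest possible, n = 2 per group). The rise after TPA was not particular to deserts. Intergenic regions near genes had 19.0% and 18.9% in the control, 20.3% and 20.7% after TPA, and 19.0% and 19.4% after ZnCl2. Promoters had 36.5% and 34.5% in the control, 32.1% and 31.1% after TPA, and 37.8% and 35.1% after ZnCl2.

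Desert regions were narrow. Their median width was 920 and 1350 bp in the control, 910 and 840 bp after TPA, and 1120 and 1480 bp after ZnCl2. The TPA libraries had the narrowest desert regions and ZnCl2 replicate 2 the widest, but the control libraries differed from each other by more than TPA replicate 1 did from control replicate 1. The mean of the medians was 875 ± 49.5 bp after TPA, 1135 ± 304 bp in the control and 1300 ± 255 bp after ZnCl2 (SD, n = 2 each, exact permutation p = 0.333 for TPA and 0.667 for ZnCl2, adjusted p = 0.833 for both). The TPA difference was -45.0 bp without control replicate 2 and -475 bp without control replicate 1. With lists of equal length the medians were 990 and 1630 bp in the control and 1060 and 1050 bp after TPA, so that control replicate 1 had narrower desert regions than both TPA libraries (exact permutation p = 1, n = 2 each).

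Within every library, desert regions were narrower than the other open regions. The median was lower in 6 of 6 libraries, with a mean difference of -413 bp from all other regions and of -140.0 bp from intergenic regions near genes (two-sided exact sign-flip permutation p = 0.0312 each, adjusted p = 0.0375 over 6 such comparisons, n = 6). These p-values are the smallest that 6 libraries allow, and the 6 libraries share many of their regions, so they are not fully independent.

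The GC content of desert regions was 45.8% and 43.6% in the control, 44.5% and 44.1% after TPA, and 46.0% and 46.2% after ZnCl2. Both ZnCl2 libraries lay above both controls, by 1.39 percentage points on average (exact permutation p = 0.333, adjusted p = 0.833, n = 2 each), and the TPA libraries lay between the controls. The ZnCl2 difference was 0.29 points without control replicate 2 and 2.49 without control replicate 1. With lists of equal length the ZnCl2 values were 48.0% and 46.2% and those of the control 46.4% and 45.5%, so that the groups overlapped (exact permutation p = 0.667, n = 2 each). Deserts were poorer in GC than other open regions in 6 of 6 libraries, with a mean difference of -6.57 percentage points from all others and of -4.04 from intergenic regions near genes (exact sign-flip permutation p = 0.0312 each, adjusted p = 0.0375, n = 6).

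Each deposited region carries a score from the authors' caller, which was turned into a percentile within its own list, where 100 is the best. Desert regions had a median percentile of 37.1 and 39.5 in the control, 39.6 and 40.1 after TPA, and 36.4 and 38.5 after ZnCl2. All 6 values lay below 50, the middle of a list. The TPA libraries lay just above both controls (exact permutation p = 0.333, adjusted p = 0.833, n = 2 each), and the ZnCl2 libraries overlapped them (p = 0.667 by the same exact test). At equal list length the TPA medians were 43.6 and 40.7 and those of the control 36.9 and 37.1, a difference of 5.15 percentile points (exact permutation p = 0.333). Intergenic regions near genes were also higher after TPA at equal length, with 45.4 and 44.6 against 39.9 and 40.2 in the control.

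Set beside all other open regions of the same library, desert regions ranked lower in 6 of 6 libraries, with a mean difference of -11.8 percentile points (exact sign-flip permutation p = 0.0312, adjusted p = 0.0375, n = 6). Against intergenic regions near genes the difference was -2.89 points. It was lower in 5 of 6 libraries and equal in ZnCl2 replicate 2 (exact sign-flip permutation p = 0.0625, n = 6), which did not pass the test. Promoters had the highest medians in every library, from 65.1 to 79.0.

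**Figure D1:**
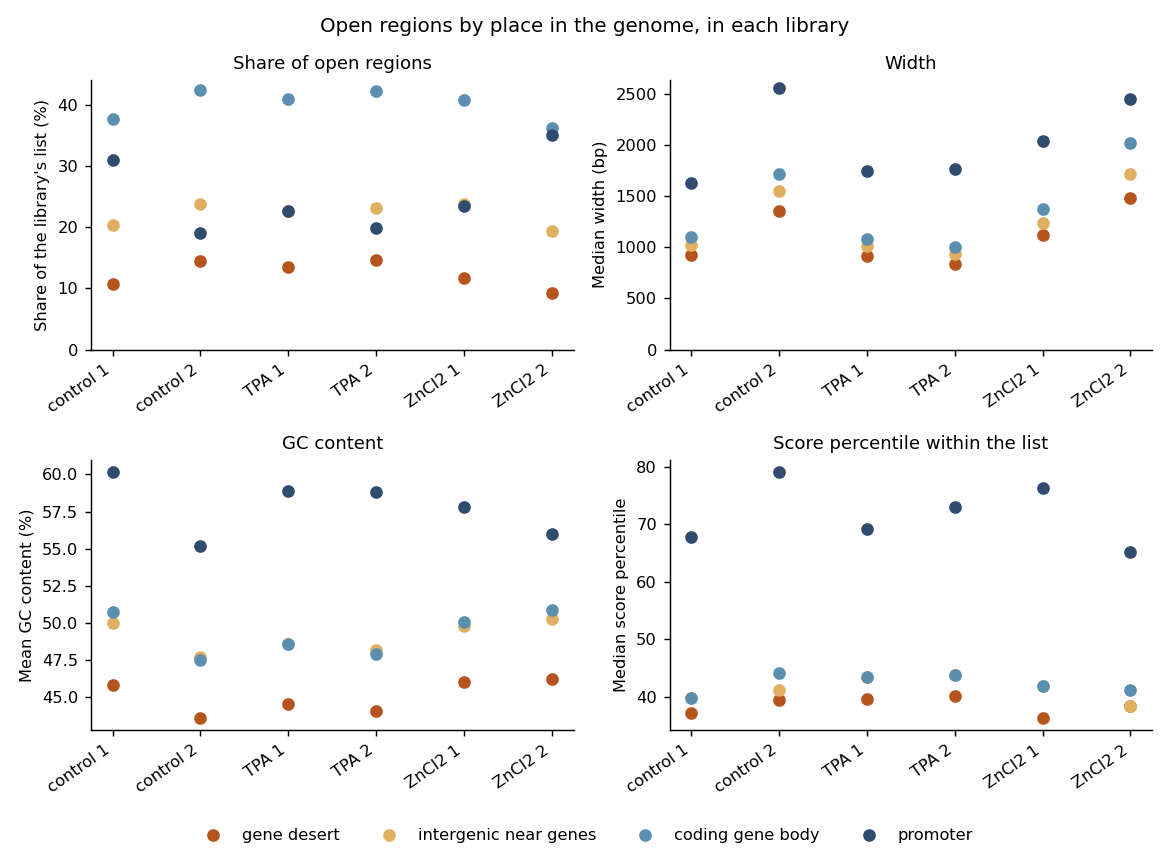
Open regions of 4 classes in each of the 6 libraries, with the share of the library's list (%), median width (bp), mean GC content (%) and median score percentile on the vertical axes; each point is 1 library's value for 1 class. Desert regions were the smallest class, the narrowest and the poorest in GC in all 6 libraries, with medians of 840 to 1480 bp and 43.6% to 46.2% GC.

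Few desert regions were open in every library. Of the 7515, 1598 were open in 1 library, 1175 in 2, 1200 in 3, 1131 in 4, 1069 in 5 and 1342 in all 6. The last made up 17.9% (95% Wilson interval 17.0% to 18.7%, counting error only). The same share was 23.6% of intergenic regions near genes, 27.9% of regions in coding gene bodies and 68.0% of promoter regions. Control replicate 2 covered 6370 desert regions and ZnCl2 replicate 2 covered 1658, and 728 were open in control replicate 2 alone, so that sharing is bounded by the shortest lists.

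**Figure D2:**
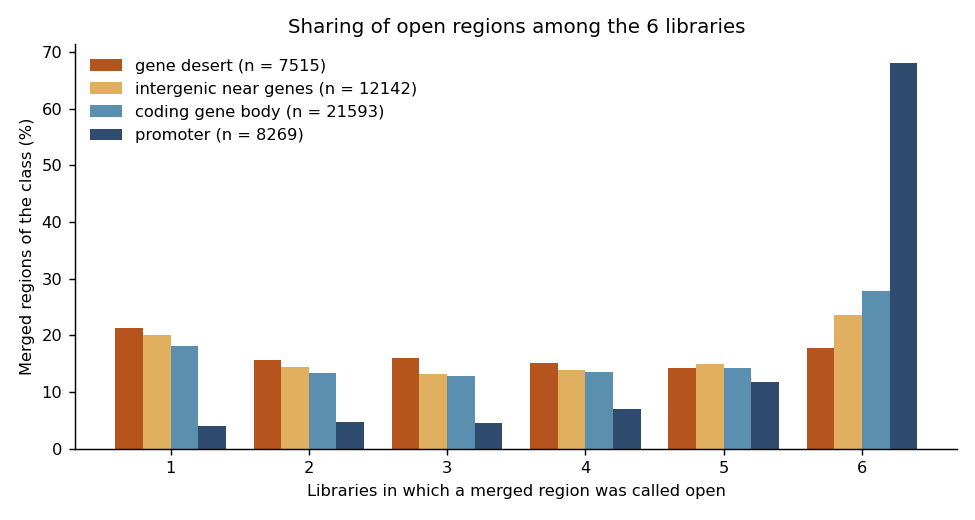
Share of merged regions (%) called open in 1 to 6 libraries, with a bar for each of the 4 classes. Desert regions were spread over all numbers of libraries, with 17.9% in all 6, while 68.0% of promoter regions were open in all 6.

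Desert regions open in all 6 libraries were broader and scored higher than the rest, with a median merged width of 2145 bp against 1380 bp over all members. Width and score take part in whether a region is called, so this is a description. Of the members open in all 6, 10.6% reached within 1000 bp of an lncRNA start, against 5.87% of all members and 3.004% of those open in 1 library. The 441 members within 1000 bp of an lncRNA start stood apart in sequence as well. They were 49.1% GC on average against 43.2% for the others, 20.9% held the SP and KLF letters against 5.87%, and 23.4% held AP-1 letters against 41.5%.

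Distance from coding genes went with the same features. Of members at 100 to 200 kb from a start site, 21.3% were open in all 6 libraries, against 16.5% at 200 to 500 kb, 14.1% at 500 to 1000 kb and 12.8% farther out. Mean GC content was 45.2%, 42.8%, 40.9% and 44.01% in these 4 groups. The farthest group did not continue the order in GC, and 39.9% of it held repeated sequence (defined below) against 16.9% to 22.7% in the nearer groups.

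The letters bound by AP-1 were the most frequent of the motifs searched in desert regions. In the central 300 bp, TGANTCA was found in 40.5% of desert regions, 29.4% of intergenic regions near genes, 29.4% of regions in coding gene bodies, 4.95% of promoter regions and 27.0% of all merged regions. In the libraries' own lists it was found in 49.4% and 40.5% of desert regions in the control, 50.3% and 51.7% after TPA, and 40.9% and 36.0% after ZnCl2. The TPA libraries were the highest and ZnCl2 replicate 2 the lowest, with control replicate 1 close to the TPA libraries. Intergenic regions near genes had a similar order, with 39.8% and 29.5% in the control, 41.2% and 40.6% after TPA, and 30.5% and 28.6% after ZnCl2. Libraries with narrower desert regions had the higher desert shares. Whether width took part was not tested, nor were the conditions compared by a test. The desert share exceeded that near genes in 6 of 6 libraries, 44.8% ± 6.47 against 35.03% ± 6.07 (SD, n = 6, exact sign-flip permutation p = 0.0312, which is also the adjusted value over 8 motifs).

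Base composition bears on such counts, so the left and right parts of the motif were swapped to give letters of the same composition that AP-1 is not known to bind. TCANTGA was found in 12.3% of desert regions, 9.36% of intergenic regions near genes and 9.15% of all merged regions. The ratio of AP-1 to swapped letters was 3.70 ± 0.525 in deserts and 3.76 ± 0.456 near genes over the 6 libraries, and the 2 ratios did not differ beyond their spread (difference -0.0556, higher in deserts in 4 of 6, exact sign-flip permutation p = 0.719, n = 6). Thus both kinds of letters were more frequent in deserts, by about the same factor.

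AP-1 letters were concentrated at the centres of desert regions. Within 100 bp of the centre there were 183 matches per 1000 regions in each 100 bp, against 36.7 beyond 1000 bp, a ratio of 4.99. The swapped letters gave 45.6 and 37.95, a ratio of 1.20. Intergenic regions near genes had 126 AP-1 matches at the centre and 32.8 at the flanks, and promoters had 18.5 and 26.2.

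**Figure D3:**
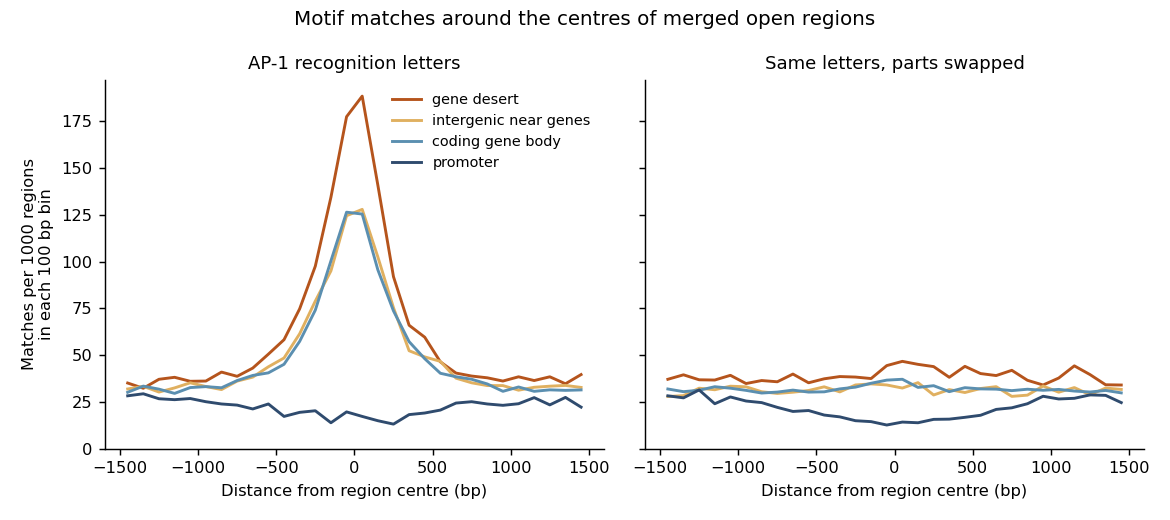
Matches per 1000 regions in 100 bp bins against the distance (bp) from the centre of merged regions, for the AP-1 letters (left) and the same letters with left and right parts swapped (right), with a line per class. Desert regions had the highest AP-1 peak, 183 matches within 100 bp of the centre, and a nearly flat line for the swapped letters.

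Other motifs split by their base content. TEAD letters (ACATTCC) were found in 7.52% of desert regions and 5.67% of all merged regions, RUNX (TGTGGTT) in 9.69% and 6.98%, C/EBP (TTGCNNAA) in 18.7% and 14.8%, and the p53 family letters (ACATGTC, a part of the full site) in 3.26% and 2.498%. Each of these was more frequent in deserts than near genes in 6 of 6 libraries (exact sign-flip permutation p = 0.0312 for each, adjusted p = 0.0312). The swapped AP-1 letters passed the same test with the same p, at 12.1% ± 0.420 in deserts against 9.29% ± 0.803 near genes (SD, n = 6). Passing it therefore does not set these motifs apart from the swapped letters. The GC-rich motifs went the other way in 6 of 6 libraries, with the same p. CTCF letters were found in 5.68% of desert regions against 8.93% of all merged regions, and SP and KLF letters in 6.75% against 19.5%, with 58.2% in promoter regions.

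Among members open in all 6 libraries CTCF letters were found in 8.27%, against 3.84% to 6.21% of members open in fewer. SP and KLF letters were likewise found in 10.8% against 4.5% to 7.01%. The central 300 bp was 47.5% GC on average, against 43.3% to 44.9% in members open in fewer. Whether base composition took part was not tested. Such short letters match by chance too, and no match shows that a factor was bound.

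A region that matches several places in the genome can be called open from reads that belong elsewhere. To mark such regions, 10 pieces of 50 bp were taken evenly from each, and a piece was called repeated when it occurred more than once in hg38. Regions outside repeats, below, are those with no repeated piece. Inexact copies and short units that recur, as in chr3:93470351-93470810, can go unmarked. At least 1 repeated piece was found in 1565 members (20.8%), and in 35.9% of the 1503 members with the highest mean percentile against 13.6% of the 1502 with the lowest. The 5 members with the highest mean percentile among those open in all 6 libraries lay at 99.9 or above in the mean of 6 libraries. These were chr17:22524001-22524690 between KCNJ18 and WSB1, chr21:8218531-8220930 before TPTE, chr1:125154201-125184570 and chr1:143184691-143259620 between SRGAP2C and H3-7, and chr3:93470351-93470810 between EPHA3 and PROS1. The pair on chromosome 1 was 30370 and 74930 bp wide, and all but the region on chromosome 3 held repeated pieces.

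Of the members open in all 6 libraries with no repeated piece, chr21:6368411-6372870, in the same desert before TPTE, ranked at 99.8 or above in each library and was also the farthest from a coding start, at 4150912 bp. The region chr1:198017791-198019850, between LHX9 and NEK7 (a mitotic kinase), had 99.1 and 99.4 in the control, 99.0 and 98.9 after TPA, and 97.4 and 97.5 after ZnCl2. Both ZnCl2 libraries lay below the other 4. The region was chosen for its rank and this was not tested.

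Very remote regions were also called in every library. The region chr3:77824671-77826770, between ROBO2 and ROBO1 (receptors of axon guidance), lay 1919026 bp from a coding start, with percentiles of 69.2 and 85.7 in the control, 92.1 and 89.6 after TPA, and 90.1 and 77.1 after ZnCl2. The region chr11:39668141-39670340, between IFTAP and LRRC4C, lay 1790532 bp away and ranked between 13.1 and 54.6. It was open in all 6 libraries at a modest rank, but at equal list length only ZnCl2 replicate 2 kept its call.

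Deserts were named by the coding genes on either side. The desert with the most open regions was chromosome 21 from its end to TPTE, with 67, of which 66 held repeated pieces. They were called 13 and 47 times in the control, 13 and 15 times after TPA, and 49 and 31 times after ZnCl2. Both TPA libraries and control replicate 1 were low, while in the deserts outside repeats described next the TPA libraries were among the highest. RPIA-AQP7B on chromosome 2 (39 regions, 38 with repeated pieces) and CNTNAP3C-FOXD4L5 on chromosome 9 (37, all with repeated pieces) likewise had their highest counts in control replicate 2 and ZnCl2 replicate 1. All 3 lie on a short arm or near a centromere.

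The desert with the most open regions outside repeats was that between MYC, the growth-promoting transcription factor, and GSDMC, a gasdermin. It held 50 regions in 1851 kb of chromosome 8 (chr8:127835435-129686623), 27.0 per Mb, of which 45 held no repeated piece, 24 held AP-1 letters and 19 were open in all 6 libraries. The calls were 23 and 42 in the control, 37 and 41 after TPA, and 35 and 21 after ZnCl2. At equal list length they were 19 and 19, 19 and 21, and 17 and 21, so the 3 conditions overlapped. Its strongest region, chr8:127948711-127953260 in the lncRNA gene PVT1, ranked between 98.3 and 99.4 in the 6 libraries.

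PLXNA2-CAMK1G (a semaphorin receptor and a calmodulin-dependent kinase) on chromosome 1 came next, with 46 regions at 40.4 per Mb, 36 of them without repeats and 13 open in all 6 libraries. Its strongest region outside repeats, chr1:209386831-209390230, ranked at 97.9 and 98.2 in the control, 99.6 and 99.5 after TPA, and 98.1 and 88.2 after ZnCl2. In DUSP4-SARAF (a MAP kinase phosphatase and a regulator of store-operated calcium entry) on chromosome 8, 33 regions lay in 533 kb, or 62.0 per Mb, the densest of the first 10 deserts. The calls there were 18 and 31 in the control, 28 and 31 after TPA, and 19 and 6 after ZnCl2. At equal list length they were 11 and 8, 12 and 11, and 8 and 6.

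KLF4-ACTL7B, beside the epithelial zinc finger factor KLF4, held 32 regions, none with repeated pieces and 18 with AP-1 letters. They were called 13 and 24 times in the control, 21 and 29 after TPA, and 15 and 6 after ZnCl2. At equal list length the calls were 8 and 8, 12 and 14, and 3 and 6, so both TPA libraries lay above and both ZnCl2 libraries below the controls. All members together had the same order at equal length, with 1708 and 1917 calls in the control, 2012 and 2126 after TPA, and 1582 and 1658 after ZnCl2. MAT2B-TENM2 had it too (7 and 7, 12 and 12, and 2 and 2), and the other deserts of the first 10 did not. IGFBP3-TNS3 (an IGF-binding protein and a focal adhesion protein) held 29 regions, 17 of them with AP-1 letters. MAT2B-TENM2 (34 regions) and AGA-TENM3 (33), both bounded by a teneurin adhesion gene, were long and sparse at 10.4 and 7.33 per Mb, and few of their regions, 2 and 3, were open in all 6 libraries.

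The next deserts without the repeated regions were DAOA-EFNB2 (28) and VRK1-BCL11B (26). In DAOA-EFNB2, which borders the gene of an ephrin ligand, 11 and 27 regions were called in the control, 21 and 27 after TPA, and 16 and 8 after ZnCl2. ZnCl2 replicate 2, with the shortest list, was the lowest and the other libraries of the 3 conditions overlapped. At equal list length the calls were 7 and 9 in the control, 8 and 10 after TPA, and 8 and 8 after ZnCl2, so all 3 conditions overlapped.

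**Figure D4:**
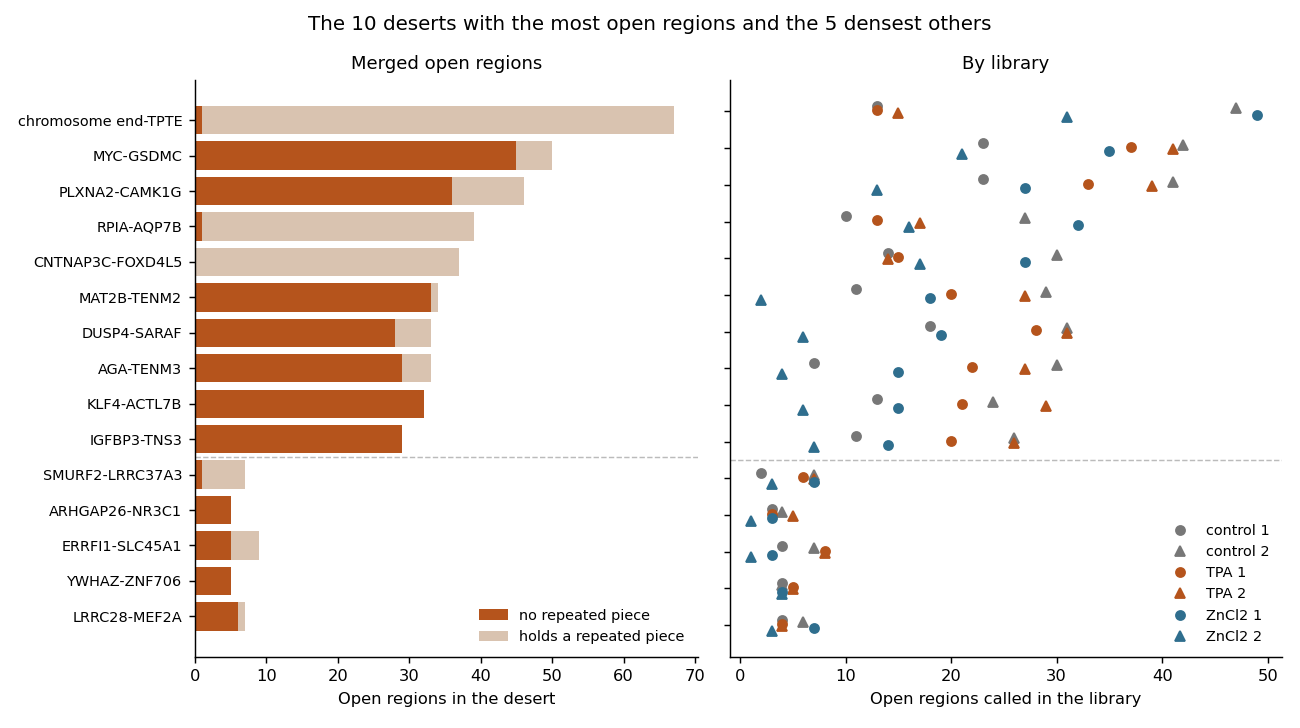
Left, merged open regions in each of the named deserts, split by whether a region held a repeated piece; right, regions called in each library (circles, replicate 1; triangles, replicate 2); deserts above the dashed line had the most regions and those below it the most per Mb. The deserts chromosome end-TPTE, RPIA-AQP7B and CNTNAP3C-FOXD4L5 consist almost wholly of regions with repeated pieces, and ZnCl2 replicate 2 had 2 to 7 calls in the 5 deserts from MAT2B-TENM2 to IGFBP3-TNS3.

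Among shorter deserts the densest were SMURF2-LRRC37A3 (122 per Mb, 6 of its 7 regions with repeated pieces), ARHGAP26-NR3C1 (102 per Mb), ERRFI1-SLC45A1 (98.0), YWHAZ-ZNF706 (94.7) and LRRC28-MEF2A (93.7), each with 5 to 9 regions. NR3C1 codes for the glucocorticoid receptor, ERRFI1 for an inhibitor of EGFR and MEF2A for a MADS-box factor. The strongest region beside NR3C1, chr5:143242622-143247261, ranked at 95.2 and 95.4 in the control, 97.6 and 98.0 after TPA, and 91.7 and 74.0 after ZnCl2. Both TPA libraries ranked it above both controls, and both ZnCl2 libraries below. The region was chosen for its rank and this order was not tested. Of the strongest regions of other deserts, that in KLF4-ACTL7B had the same order, and those in DUSP4-SARAF, IGFBP3-TNS3 and LRRC28-MEF2A did not. Beside MYC, in contrast, ZnCl2 replicate 1 ranked the strongest region above both controls.

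Of 50 genes listed for epithelial identity, growth control or development, 33 bordered a desert with open regions. The 51 deserts beside a listed gene held 417 members at 12.8 per Mb, against 7.70 per Mb in the other deserts. The genes were listed with earlier results of these data known. The contrast therefore cannot show whether open regions gather beside such genes, and it was not tested. The counts were 55 beside MYC, 45 beside SOX9, 33 beside KLF4, 30 beside BMP2, 24 beside TFAP2A and 21 each beside TGFB2 and NR2F2. SOX9, TFAP2A and NR2F2 are transcription factors, and BMP2 and TGFB2 are secreted ligands of the TGF-β family. Beside JUN, a subunit of AP-1, there were 12. There were 9 beside TP63, which codes for p63, and 8 beside AREG, an EGFR ligand. AP-1 letters were held by 7 of the 8 beside AREG, but by 0 of 9 beside CEBPB and 1 of 6 beside RUNX2, against 40.5% of all members. The deserts beside TP63 and AREG are short, and per Mb they were denser, at 33.9 and 53.6, than those beside MYC at 26.6. The desert beside CEBPB was the densest of those beside listed genes, at 75.3 per Mb. Only 35 of the 50 genes border any desert, so most genes without a count had none beside them.

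By chromosome, members were densest on chromosomes 8 (11.9 per Mb of desert), 20 (11.8) and 1 (11.7). Chromosome 19, which is rich in genes, had 4 members at 0.579 per Mb, and the X chromosome had 3.07 per Mb.

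To ask which desert regions changed with Zn2+, members open in both treated libraries but in neither control were called gained, and the opposite case was called lost. With TPA, 195 members were gained, 2.59% of all, against a background of 2.04% of all merged regions, and 29 were lost (0.386%, background 0.701%). With ZnCl2, 17 were gained (0.226%, background 0.172%) and 200 were lost (2.66%, background 1.73%). These counts are bounded by the list lengths. ZnCl2 replicate 2 had the shortest list, and few regions could be gained with it.

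At equal list length 167 members were gained and 60 lost after TPA (2.22% and 0.798%, background 1.99% and 2.41%), and 78 were gained and 199 lost after ZnCl2 (1.04% and 2.65%, background 1.67% and 1.92%). Counted over all members, the gained share after TPA was near the background. Lost members after TPA were fewer than the background share, and lost members after ZnCl2 were above it. Only 3059 members kept a call at equal length. Of these, 5.46% were gained and 1.96% lost after TPA, against 3.78% and 4.58% of the 26051 merged regions with a call, and 2.55% were gained and 6.51% lost after ZnCl2, against 3.18% and 3.64%. By this second count the gained share after TPA lay above that of all merged regions with a call. The difference was not tested. Both treatments were compared with the same control libraries.

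**Figure D5:**
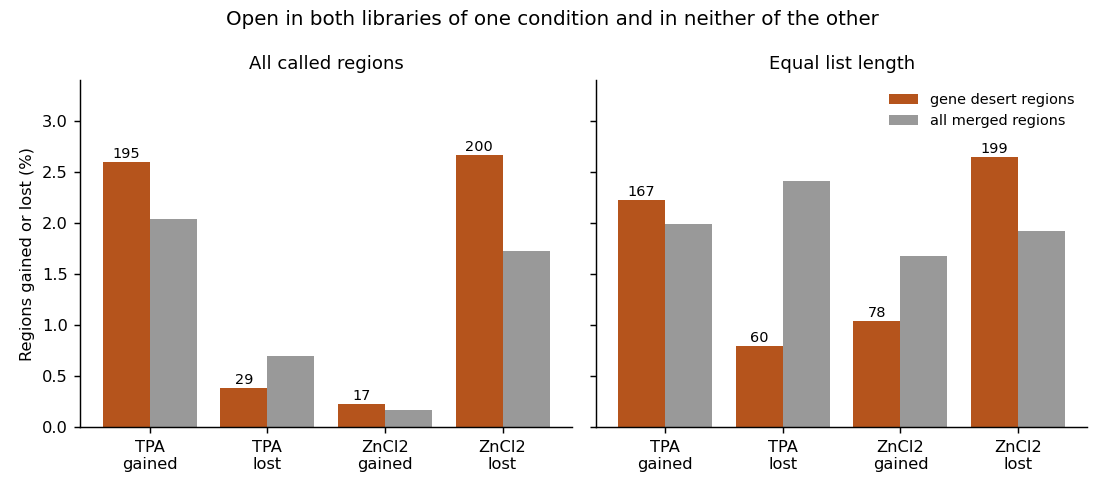
Regions gained or lost (%) after TPA and ZnCl2 among desert regions and among all merged regions, for all called regions (left) and equal list length (right); the number over each bar counts desert regions. At equal length, 0.798% of desert regions and 2.41% of all merged regions were lost after TPA.

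The 195 members gained after TPA were 42.7% ± 5.19 GC (SD over regions), against 43.6% for all members, and 10.3% held repeated pieces. AP-1 letters were found in 50.3% of them, near the shares of 50.3% and 51.7% in all desert regions of the TPA libraries. The other AP-1 shares were 17.2% of members lost after TPA, 34.5% of those lost after ZnCl2 and 23.5% of those gained after ZnCl2. The 29 lost after TPA were 50.6% GC, and 55.2% of them held repeated pieces. The 200 lost after ZnCl2 were 40.5% GC and 16.5% held repeated pieces, while of the 17 gained after ZnCl2 70.6% did. Without the repeated regions, 13 were lost after TPA and 5 were gained after ZnCl2. Whether repeats took part in these calls was not tested.

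The highest ranked member gained after TPA was chr6:12578301-12579310, between EDN1, which codes for the vasoactive peptide endothelin, and PHACTR1, an actin and phosphatase regulator. It had percentiles of 62.1 and 77.4 after TPA and no call in the other 4 libraries. The other was chr8:127214871-127217200, in the lncRNA genes PCAT1 and CASC19, at 53.7 and 78.2 after TPA alone. Outside repeats, the highest ranked members lost after TPA were chr7:158956581-158959660, which overlaps the gene DYNC2I1 at its edge, and chr22:23400051-23403650, between BCR and IGLL1. The first ranked at 54.7 and 59.0 in the control and 85.8 and 63.6 after ZnCl2. Both are GC-rich, at 56.5% and 65.9%.

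The highest ranked member lost after ZnCl2 outside repeats was chr9:81492651-81494650, between TLE4 and TLE1, corepressors of the Groucho family. It ranked at 66.1 and 63.0 in the control and 53.7 and 76.5 after TPA. It was open in 4 of 6 libraries and in neither ZnCl2 library.

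Outside repeats, the highest ranked members gained after ZnCl2 were chr5:8622301-8622840, between MTRR and SEMA5A, and chr13:55971461-55972320, between OLFM4 and PRR20A. The first ranked at 97.01 and 79.5 after ZnCl2 and the second at 82.6 and 53.2, with no call elsewhere. Both share sequence with the mitochondrial genome, with 20 and 34 words of 20 bases in common. The same held for chr3:96618149-96618508, the highest ranked member lost after ZnCl2 (128 words), which had no call after TPA either. It held too for chr17:22524001-22524690, the highest ranked of those open in all 6 libraries (130 words). Such members, with at least 10 words in common, numbered 19 of 7515 (0.253%), against 35 of the 42004 other merged regions (0.0833%). They made up 3 of the 17 gained after ZnCl2. The 19 members were called 2 and 7 times in the control, 2 and 3 times after TPA, and 11 and 12 times after ZnCl2. For the other merged regions, such counts by library and among gained regions were not made. Both ZnCl2 libraries had the most, although ZnCl2 replicate 2 had the shortest list. The part of mitochondrial reads in these calls was not tested. Without these 3, 14 members were gained after ZnCl2.

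The 2 libraries of 1 condition shared about as many desert regions as libraries of different conditions did when all calls were used. The share of regions open in both among those open in either was 49.7% on average for the 3 pairs of the same condition (36.4% to 72.8%) and 49.0% for the 12 pairs of different conditions (25.05% to 72.7%). At equal list length it was 65.4% (62.8% to 69.9%) against 56.3% (47.7% to 64.6%), and the ranges overlapped. The other merged regions gave 77.1% against 68.6%. No test was made, since the pairs share libraries.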

How the data were processed

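ATAC-seq measured open chromatin in MCF10A cells (control, TPA and ZnCl2, 2 libraries each). The authors made libraries by OMNI-ATAC, sequenced each in 2 runs that were combined, trimmed with BBDuk, mapped to hg38 with HISAT2 2.1.0, used SAMtools 1.8 and FastQC 0.11.8 (tool versions from the submitters' processing notes) and called open regions in each library with HMMRATAC, whose version is not given in the sources used here. The 6 deposited lists give position and a score per region, a whole number of at least 30, with a width of at least 200 bp. The authors' later merging, blacklist and read counts were not used here, so blacklisted regions remain in the lists and depth is unknown.

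Lists on chromosomes 1 to 22 and X were merged, and a region counted as open in a library at an overlap of at least 1 bp. GENCODE release 44 gave genes and start sites (1 per gene). Percentiles were taken within a list. Motifs were searched on both strands in the central 300 bp of regions, where a CTCF match may overlap others. The motif tests and the swapped letters were added after values were seen, as was the comparison with the mitochondrial genome (20-base words). For conditions the test was an exact two-sided permutation over libraries, and classes within libraries by an exact sign-flip permutation test, with Benjamini-Hochberg adjustment. The members, lists and rules were chosen with earlier results of these data known.

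Named were the 10 deserts with most members and the 5 densest others of at least 5 members. Named members were the 5 of highest mean percentile open in all 6 libraries, with and without repeated pieces, the 2 highest gained and lost per treatment, likewise, and the 3 farthest open in all 6. Some items that these rules name are not reported here. The strongest region of each named desert, the further deserts without repeats and the deserts without open regions were chosen after values were seen. Alternatives were equal list length, the upper 50% of each list, limits of 50 and 200 kb, all transcript starts, genes of every type, leaving out repeated regions, assigning by overlap, an overlap of 50%, each library left out and a replicate block. Procedures were tested on simulated data. The tools were pysam 0.24.0, numba 0.67.0, SciPy 1.17.1, NumPy 2.4.6, Python 3.11.15, pandas 2.3.3, Matplotlib 3.10.9, samtools 1.23.1 and bedtools 2.31.1.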

Additional observations from a re-analysis of the deposited data

How the results depend on the processing

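Leaving out 1 of the 2 control libraries moved many of the treatment comparisons. Across single libraries left out, the difference from the control in desert share ranged from -0.45 to 3.34 percentage points for TPA, that in mean GC from -1.54 to 0.66 points for TPA, that in median percentile from -2.00 to 0.33 for ZnCl2, that in median width from -50.0 to 380.0 bp for ZnCl2, and that in number of regions from -1030.5 to 2769.5 for TPA and from -3378 to 422.0 for ZnCl2, so these changed sign. The others kept their sign but moved, from -4.04 to -0.25 points in desert share and 0.29 to 2.49 points in GC for ZnCl2, and from 0.38 to 2.72 in percentile and -475 to -45.0 bp in width for TPA. The TPA difference in percentile was 5.15 at equal list length. The ZnCl2 difference in percentile was -2.75 without repeated pieces. The TPA differences in share, GC and number turned without control replicate 1, the ZnCl2 difference in number without control replicate 2, that in width without control replicate 1 or ZnCl2 replicate 2, and that in percentile without ZnCl2 replicate 1 or control replicate 2. The ZnCl2 difference in median percentile also turned at equal list length (1.22), with the upper 50% of each list (2.07) and at more than 50 kb from a start site (0.16).

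With 5 libraries the sign-flip test cannot go below 0.0625, so the differences within libraries kept their direction but not their side of 0.05 when any library was left out. Against all other regions they ranged from -438 to -366 bp in width, -6.75 to -6.28 points in GC and -12.1 to -11.2 in percentile, and against intergenic regions near genes from -150.0 to -122 bp and -4.09 to -4.02 points of GC. The percentile difference from regions near genes passed without regions that hold a repeated piece (-3.23, exact permutation p = 0.0312), and its p ranged from 0.0312 to 0.3125 over the alternatives.

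Members numbered 3059 at equal list length, 3215 with the upper 50% of each list, 4462 at more than 200 kb and 4533 outside genes of every type. Their share open in all 6 libraries was then 28.9% at equal length, 13.5% with the upper 50%, 15.5% at more than 200 kb, 18.7% at more than 50 kb, 16.9% with starts of all transcripts and 6.28% where a call had to cover 50% of the member, and it ranged from 18.3% to 30.0% with 1 library left out (30.0% without ZnCl2 replicate 2).

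Gained members ranged from 201 to 1985 with TPA and from 26 to 381 with ZnCl2 when 1 library was left out, and lost members from 40 to 1076 and from 208 to 2413, with the highest losses without control replicate 1 and the most gained with TPA without control replicate 2. Gained with TPA were 108 at more than 200 kb and 126 outside genes of every type. Lost with TPA were 60 at equal length, 17 at more than 200 kb, 50 at more than 50 kb, 12 outside all genes, 19 with the upper 50%, 13 without repeated pieces and 71 at 50% overlap. Gained with ZnCl2 were 78 at equal length, 31 at more than 50 kb, 31 at 50% overlap and 5 without repeated pieces. Lost with ZnCl2 were 126 at more than 200 kb, 116 outside all genes and 131 with the upper 50%. Smaller sets of members follow from the stricter limits themselves. With 1 library left out, the rule for gained and lost rests on 1 library of that condition, so these counts cannot fall. The cause of the other shifts was not tested.

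With the replicate block, which pairs libraries by number, the difference in desert share was 1.45 points for TPA and -2.14 for ZnCl2 (exact permutation p = 0.5 and 1, where 0.5 is the smallest possible), and no call changed. The labels do not tie the numbers to a shared batch, and the desert share was higher in replicate 2 of control and TPA and lower in replicate 2 of ZnCl2.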

Other observations

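The largest desert stretches without any open region were chosen after their values were seen. Between ADGRL3, an adhesion receptor, and TECRL, 2.20 Mb of chromosome 4 at 34.8% GC held none in any of the 6 libraries, and between SPDYE21 and AUTS2, 2.12 Mb of chromosome 7 at 43.8% GC held none. On chromosome 14, the 2.44 Mb of sequence between the chromosome end and OR11H12 held none as well. In all, 846 desert stretches with 113 Mb of sequence held no open region.

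Desert regions took up the largest share of open regions on chromosome 13 (27.7%), where deserts made up 47.7% of the sequence, and on chromosomes 21 (24.0%) and 8 (23.9%). On chromosome 21, 55.2% of the desert regions held repeated pieces, on chromosome 8 17.1% and on chromosome 13 10.2%. Of the desert regions, 245 overlapped a pseudogene (3.26%).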
